A study of Mus musculus with 4 samples.

Results

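Prolactin and growth hormone act on cells through a short, shared signalling route, and its transcripts were examined here in whole brains of adult female mice that lacked the RNA editing enzyme ADAR2. The members were 10 genes, chosen by symbol as the receptors of the 2 hormones and the relay, feedback and target genes below them. They were the receptors Prlr and Ghr, the kinase Jak2, the transcription factors Stat5a and Stat5b, the feedback inhibitors Socs1, Socs2, Socs3 and Cish, and the secreted target Igf1. In the array table they had 13 of 33793 rows, each row being a transcript cluster, a set of probes spread over the exons of 1 transcribed locus. Total RNA of 2 wild-type and 2 Adar2-/- brains had been hybridised to 4 Affymetrix whole-transcript gene arrays. All mice were of the 129SV strain, and per the study's methods the wild-type and Adar2-/- mice were siblings that both carried the pre-edited Gria2 R/R allele, which spares Adar2-/- mice from early death. The control mice were therefore not unmodified 129SV animals, and both groups were compared on the same altered glutamate receptor background. The deposited values are log2 signals, on which a difference of 1 is a 2-fold difference.

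The prolactin receptor and the growth hormone receptor are single-pass cytokine receptors without kinase activity of their own. Binding of the hormone brings the Janus kinase JAK2, which is docked on the receptor, into its active form. JAK2 then phosphorylates the STAT5 proteins, which pair, enter the nucleus and bind DNA. Among the genes they switch on are Cish and the Socs genes, whose proteins bind the receptor or JAK2 and damp the signal, so that these transcripts are widely read as a sign of recent receptor activity. In liver, Igf1 is the best known target of growth hormone, while brain Igf1 also comes from neurons and glia. In the brain, Prlr is best known from the choroid plexus, the epithelium that makes cerebrospinal fluid, and from hypothalamic neurons.

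The DNA element that STAT5 pairs bind has the core TTCNNNGAA, which reads the same on both strands. It was searched for in RefSeq promoter windows (GRCm38.p6) that run from 250 bases before to 50 bases after each annotated gene start. Windows were available for 9 of the 10 members, 14 windows in all, and 3 of them held the core, compared with 8.3% of the 32851 windows of all genes. The sites are shown because Cish, the member nearest to the threshold in the expression comparison below, carries 2 of them side by side at its start. They are given 5′ to 3′ on the strand of the gene, with the core in capitals.
Cish, first site (chr9:107296649-107296677, plus strand): ccgcccagttTTCCTGGAAagttcttgga
Cish, second site (chr9:107296660-107296688, plus strand): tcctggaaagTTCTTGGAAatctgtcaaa
Socs3 (chr11:117969502-117969530, minus strand): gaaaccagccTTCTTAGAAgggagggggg
Prlr, second of 3 annotated starts (chr15:10223786-10223814, plus strand): gcaaaatgagTTCTAGGAAtaagggatat
The Cish sites were centred 4 and 15 bases past the annotated start, and 0.457% of all windows held 2 or more cores. The Socs3 site lay 150 bases and the Prlr site 106 bases before the start. The windows of Ghr, Jak2, Stat5a, Stat5b, Socs1 and Igf1 did not hold these letters, which says nothing of sites elsewhere in those genes. Of the 10 genes listed as STAT5 targets of other tissues, 8 had windows, and Bcl6, a transcriptional repressor, was the 1 gene among them with the core, which stood once in 1 of its windows and 3 times in the other.

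The genotype was checked on Adarb1, the gene of ADAR2. Its log2 signal was 10.50 and 10.45 in the wild-type arrays and 9.16 and 8.96 in the Adar2-/- arrays. Brain tissue was shown by the neuronal markers Rbfox3, Snap25, Syt1, Tubb3, Stmn2 and Map2, all between 10.82 and 13.16. The table holds no detection calls, and probe sets have no common floor. Ddx3y, Uty, Kdm5d and Eif2s3y, carried by the Y chromosome and hence missing in females, read 3.49 to 4.40. In the 3 arrays other than Adar2-/- replicate 1, the salivary gene Smr3a read 3.65 to 4.12. The salivary genes Bpifa2, Dcpp1 and Amy1 read 5.09 to 5.98 in the same 3 arrays, and the Dcpp1 cluster is marked as able to cross-hybridize. Whether members with low signals, such as Prlr, Ghr and Cish, were detected is therefore not settled. The number of arrays limits the precision, since 2 against 2 arrays cannot give an exact two-sided permutation p below 0.33. The labels number the arrays within a genotype and give no batch, and p-values measure the spread between these arrays. Of the Adar2-/- arrays, replicate 1 stood apart by salivary gland transcripts. Bpifa2, a salivary secretory protein, was at 12.61 there and between 5.09 and 5.28 in the other arrays. Smr3a, Dcpp1 and Amy1 were higher there too, so that 4 of 9 salivary clusters exceeded every other array by more than 1, and the other 5, of Prol1, Muc19 and Aqp5, did not. Replicate 2 stood apart by low signals of the olfactory bulb genes Cdhr1, at 6.66 where the other arrays had 7.44 to 7.87, and Doc2g, at 6.70 where they had 7.74 to 7.92. Of 7 olfactory bulb clusters, 5 were lowest in that array, and only these 2 by more than 0.5.

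The hormone transcripts themselves set the question, since both were far higher in the Adar2-/- arrays. Prl was at 6.55 and 4.99 in wild type and at 10.11 and 9.66 in Adar2-/- brain. Gh was at 6.30 and 5.68 in wild type and at 9.95 and 8.36 in Adar2-/- brain. All Adar2-/- values thus lay above all wild-type values, while arrays of 1 genotype differed by up to 1.59. Whether Prl and Gh were detected in the wild-type arrays is not settled, so their differences describe the array signal. The log2 differences were 4.12 (95% interval 2.91 to 5.32, limma p 0.000182) for Prl and 3.17 (1.90 to 4.43, limma p 0.000936) for Gh. Neither passed after adjustment over all clusters (adjusted p 0.770 and 0.829), and in the pooled-variance test without shrinkage Gh was not called at an unadjusted p of 0.05 either. With 1 array left out the difference ranged from 3.34 (without wild-type replicate 2) to 4.90 (without wild-type replicate 1) for Prl, and from 2.37 (without Adar2-/- replicate 1) to 3.96 (without Adar2-/- replicate 2) for Gh. Other genes marking the anterior pituitary, where both hormones are made, were measured beside them. Of 11 clusters for 10 such genes, 9 had a higher mean in Adar2-/- brain and 1, the hormone precursor Pomc, had a limma p below 0.05, with 5.36 and 5.09 in wild type and 5.97 and 5.50 in Adar2-/- brain. Their summed linear signal was 466 and 461 in wild type and 522 and 501 in Adar2-/- brain. Besides Pomc, the clusters of Lhb, Pou1f1 and Pitx1 were higher in both Adar2-/- arrays than in both wild-type arrays. Cga, the subunit shared by several pituitary hormones, was at 5.18 and 5.29 in wild type and at 6.0 and 5.28 in Adar2-/- brain. Of its partner subunits, Lhb was at 5.86 and 5.81 in wild type and at 5.96 and 5.94 in Adar2-/- brain, while Tshb and Fshb ranged from 4.69 to 5.34 over the 4 arrays. The part that pituitary tissue may have in the hormone signals was not tested, and in whole-organ RNA fewer cells of a type and less RNA per cell cannot be told apart.

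**Figure D1:**
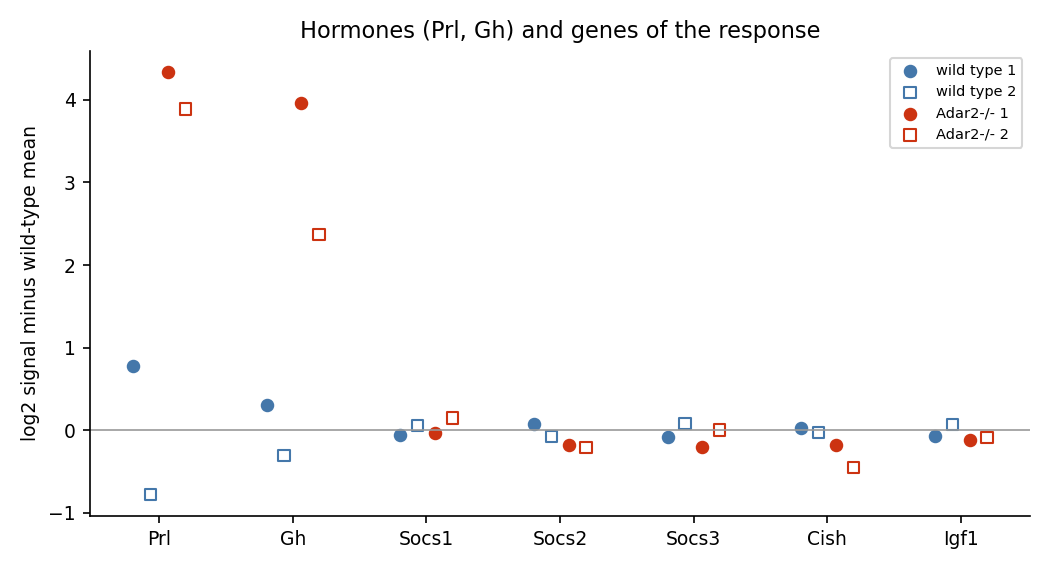
Log2 signal of each array minus the wild-type mean of the gene (vertical axis), for the hormone genes Prl and Gh and for the own-locus clusters of 5 feedback and target genes, with wild type in blue, Adar2-/- in red, filled circles for replicate 1 and open squares for replicate 2. Prl and Gh reach 2.37 to 4.34 above the wild-type mean in Adar2-/- arrays, whereas among the plotted clusters of Socs1, Socs2, Socs3, Cish and Igf1 the farthest value is that of Cish, at -0.455.

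None of the receptors or genes below them showed a difference of comparable size. With an adjusted limma p below 0.05, 0 of the 13 member clusters were called, and 0% of all clusters were. At an unadjusted limma p below 0.05 the count was also 0 of 13, where 5.95% of all clusters passed (3.64% higher and 2.31% lower in Adar2-/- brain). The split over all clusters, 1230 higher and 779 lower, depended on scaling, being 801 and 1229 after median centring, 896 and 944 after quantile normalization and 924 and 915 after cyclic loess. Without Adar2-/- replicate 1, the array with salivary transcripts, the difference was -0.455 for Cish and -0.725 for the second Socs2 cluster described below. Without Adar2-/- replicate 2 these were -0.175 and -0.035. A test of each cluster with its own pooled variance, without limma's shrinkage, called 1 member cluster at an unadjusted p below 0.05, Stat5a, where 5.61% of all clusters passed. With all 4 arrays, the differences of the members ran from -0.38 to 0.17 on the log2 scale, and the median over the 13 clusters was -0.065, beside 0.005 over all clusters. For the 10 clusters on the gene's own chromosome and strand it was -0.085. Both Adar2-/- arrays lay on the same side of both wild-type arrays in 5 of the 13 clusters, or 38.5%, against 34.1% of all clusters. In 4 of these the Adar2-/- arrays were lower (Ghr, Socs2, Cish and Igf1, 30.8% against 16.5% of all clusters) and in 1 higher (Stat5a, 7.69% against 17.7%). Over the 10 own-locus clusters the 95% intervals reached from -0.64 to 0.50, so that a difference in signal beyond 1.56-fold in either direction lay outside every one of them. This bounds the array signal and not the transcript where detection is not settled, as for Prlr, Ghr and Cish.

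**Figure D2:**
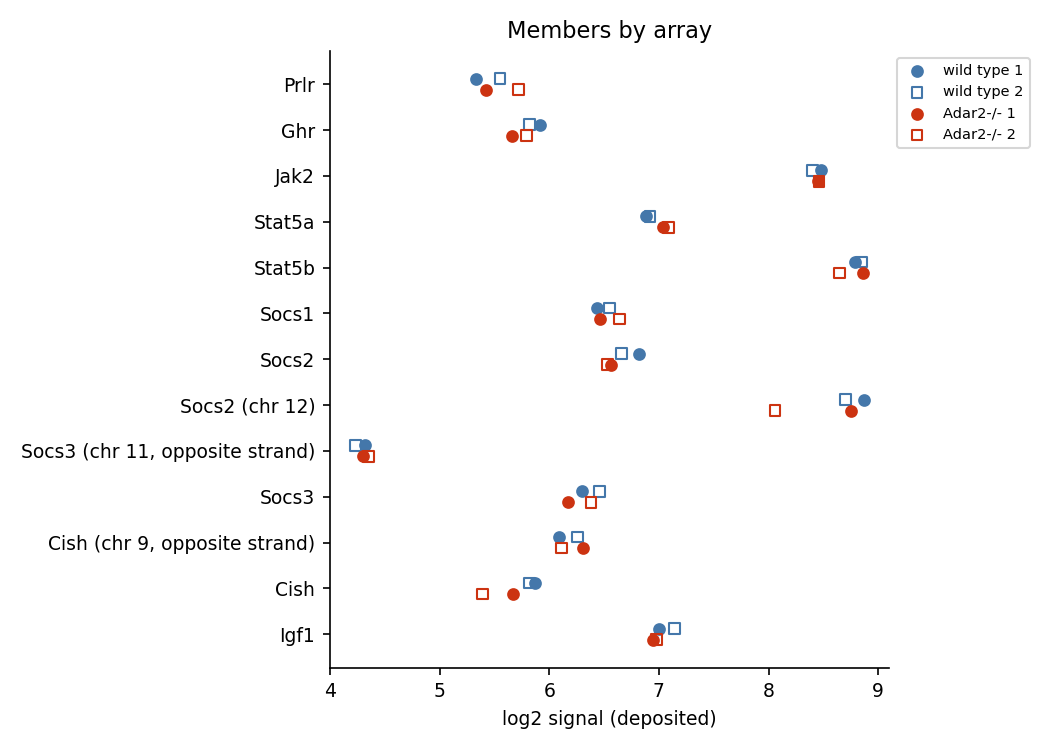
Deposited log2 signal of the 13 member clusters in each of the 4 arrays. Blue symbols are wild type and red symbols Adar2-/-, filled circles are replicate 1 and open squares replicate 2. The groups overlap in 8 of the 13 clusters, and levels of different clusters are not comparable.

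The 95% intervals of both receptors included 0. Coordinates of clusters are those of the array file, whose genome build is not named. Prlr (chromosome 15, 10177238 to 10349180, plus strand, 32 probes) was at 5.33 and 5.55 in wild type and at 5.42 and 5.72 in Adar2-/- brain. The groups interleaved, with replicate 2 the higher array in both genotypes. The difference was 0.13 (SE 0.149, 95% interval -0.24 to 0.50, limma p 0.417, adjusted p 0.924), and without Adar2-/- replicate 2 it was -0.02. Ghr (chromosome 15, 3317760 to 3583230, minus strand, 33 probes) was at 5.92 and 5.82 in wild type and at 5.66 and 5.79 in Adar2-/- brain. The groups did not overlap, but the nearest arrays of different genotype were 0.03 apart and the wild-type arrays 0.10 apart. The difference was -0.145 (SE 0.112, 95% interval -0.42 to 0.13, limma p 0.244, adjusted p 0.877).

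Beside Prlr stand the markers of the choroid plexus. Ttr, which encodes the transthyretin that this epithelium secretes, was at 12.76 and 13.12 in wild type and at 12.94 and 13.07 in Adar2-/- brain. The mean log2 signal of the 10 choroid plexus markers was 7.56 and 7.88 in wild type and 7.68 and 7.71 in Adar2-/- brain, and their summed linear signal was 8389 and 10702 and then 9375 and 10192. Like Prlr, the markers were lowest in wild-type replicate 1, but Prlr was highest in Adar2-/- replicate 2 and the markers in wild-type replicate 2. Of the 10 markers 6 had a higher and 4 a lower mean in Adar2-/- brain, and 0 had a limma p below 0.05. The part of the amount of choroid plexus in the Prlr signal was not tested.

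**Figure D3:**
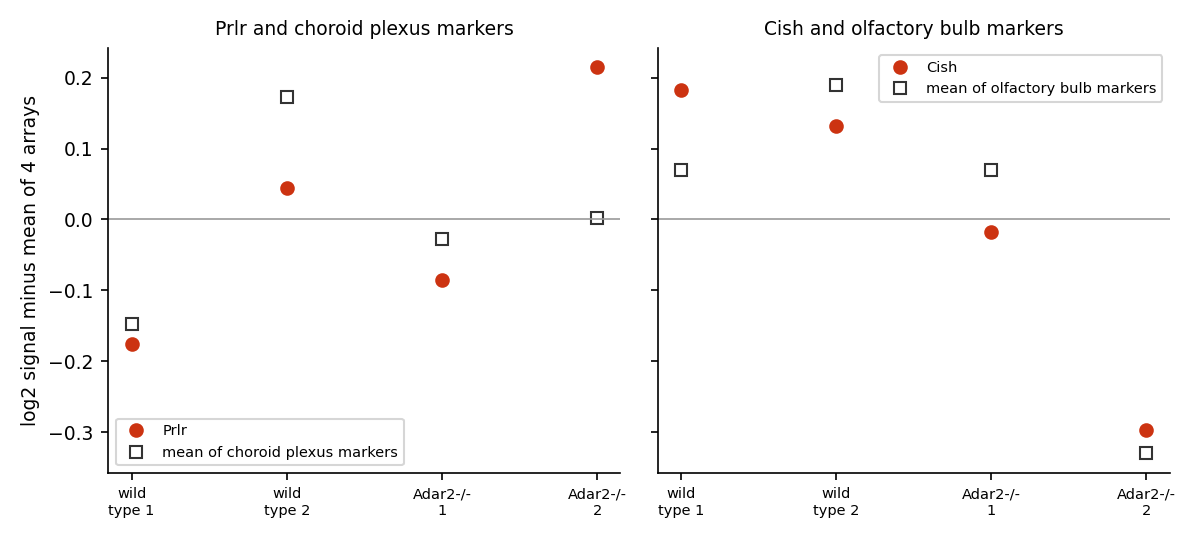
Log2 signal of each array minus the mean of the 4 arrays, for Prlr beside the mean of the 10 choroid plexus markers (left) and for Cish beside the mean of the 7 olfactory bulb clusters (right). Prlr and the choroid plexus markers are both lowest in wild-type replicate 1, and Cish and the olfactory bulb markers are both lowest in Adar2-/- replicate 2.

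For the relay from receptor to nucleus, the 95% intervals of Jak2, Stat5a and Stat5b all included 0. Jak2 (chromosome 19, 29251828 to 29313080, plus strand), the receptor-bound kinase, was at 8.48 and 8.40 in wild type and at 8.45 and 8.46 in Adar2-/- brain. The Adar2-/- values lay between the wild-type values. Its difference was 0.015 (SE 0.104) with a 95% interval of -0.24 to 0.27, which is at most 1.21-fold higher. The Stat5 genes are neighbours on chromosome 11, with the Stat5b cluster (100780731 to 100850724, minus strand) ending 8.63 kb before the Stat5a cluster (100859351 to 100885169, plus strand). The far end of Stat5a overlaps the cluster of Stat3 on the other strand by 72 bases. The file marks neither Stat5 cluster as having probes that can cross-hybridize. Stat5a was at 6.88 and 6.92 in wild type and at 7.04 and 7.09 in Adar2-/- brain. It was the 1 member with both Adar2-/- arrays above both wild-type arrays, and the arrays of a genotype differed by only 0.04 and 0.05. The difference was 0.165 (SE 0.103, 95% interval -0.09 to 0.42, limma p 0.160, adjusted p 0.856), a ratio of 1.12. Without shrinkage its pooled-variance p was 0.0356, unadjusted. Stat5b was at 8.79 and 8.85 in wild type and at 8.86 and 8.65 in Adar2-/- brain. These groups overlapped, and the difference was -0.065 (95% interval -0.36 to 0.23, limma p 0.607).

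Among the feedback inhibitors, Cish came nearest to the threshold, and its difference was opposite in sign to that of the hormones. CISH is an SH2 protein that binds phosphorylated cytokine receptors and competes with STAT5. Its cluster (chromosome 9, 107296026 to 107302784, plus strand, 18 probes) was at 5.87 and 5.82 in wild type and at 5.67 and 5.39 in Adar2-/- brain. All Adar2-/- values lay below all wild-type values, with replicate 2 the lowest. The difference was -0.315 (SE 0.131, 95% interval -0.64 to 0.01), a wild-type level 1.24-fold that of Adar2-/- brain, with a limma p of 0.0543 and an adjusted p of 0.834. The unadjusted p fell on the other side of 0.05 after median centring (-0.355, p 0.0353), quantile normalization (-0.36, p 0.0383), cyclic loess (-0.36, p 0.0361) and when clusters that can cross-hybridize were left out (p 0.0475). It stayed above 0.05 with an intensity trend (p 0.0665), in the pooled-variance test (p 0.157), and with the Cish clusters of both strands averaged to 1 value (-0.14, p 0.30). The size rested on 1 array, being -0.455 (p 0.0232) without Adar2-/- replicate 1 and -0.175 (p 0.187) without Adar2-/- replicate 2.

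Adar2-/- replicate 2 was also the array with the low olfactory bulb signal. The mean log2 signal of 7 clusters of olfactory bulb markers was 7.53 and 7.65 in wild type and 7.53 and 7.13 in Adar2-/- brain, and their summed linear signal was 1833 and 1914 and then 1748 and 1449. Of these clusters 6 had a lower mean in Adar2-/- brain, and 1, Cdhr1, had a limma p below 0.05. The part of the olfactory bulb in the Cish signal was not tested.

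SOCS2, the inhibitor whose loss gives mice with excess growth through unchecked growth hormone signalling, is encoded on chromosome 10 (95385362 to 95417180, minus strand, 41 probes). Its own cluster was at 6.82 and 6.66 in wild type and at 6.56 and 6.53 in Adar2-/- brain. The groups did not overlap, and the gap between them, 0.10, was smaller than the 0.16 between the wild-type arrays. The difference was -0.195 (SE 0.112, 95% interval -0.47 to 0.08, limma p 0.133, adjusted p 0.853). Socs1 (chromosome 16, 10783808 to 10785536, minus strand), which blocks JAK kinases directly, was at 6.44 and 6.55 in wild type and at 6.46 and 6.64 in Adar2-/- brain. Socs3 (chromosome 11, 117966079 to 117970047, minus strand), a feedback inhibitor best known from signalling by interleukin-6 and leptin, was at 6.30 and 6.46 in wild type and at 6.17 and 6.38 in Adar2-/- brain. In both genes the groups overlapped and replicate 2 was the higher array in each genotype. Their differences were 0.055 (95% interval -0.24 to 0.35, limma p 0.659) and -0.105 (95% interval -0.42 to 0.21, limma p 0.442). That of Socs3 was 0 without Adar2-/- replicate 1 and -0.21 without Adar2-/- replicate 2.

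Igf1, which encodes insulin-like growth factor 1, was at 7.0 and 7.14 in wild type and at 6.95 and 6.98 in Adar2-/- brain. The Adar2-/- arrays lay just below the wild-type arrays, 0.02 under the nearer of them, while the wild-type arrays were 0.14 apart. The difference was -0.105 (SE 0.109, 95% interval -0.38 to 0.17, limma p 0.375, adjusted p 0.914). The cluster (87858265 to 87937047, plus strand) lies on chromosome 10, as does Adarb1, and starts 10.4 Mb past its end in the file's coordinates, with Socs2 18.0 Mb past it. Of microglial markers, named here because microglia are among the brain cells that make Igf1, 7 of 8 had a lower mean in Adar2-/- brain. The same held for 5 of 6 neuronal markers and for 16133 of all 33793 clusters. Of the microglial markers 0 had a limma p below 0.05, where 5.95% of all clusters did. The summed linear signal of the microglial markers was 3648 and 4043 in wild type and 3346 and 3671 in Adar2-/- brain. The part of microglia in the Igf1 signal was not tested.

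**Figure D4:**
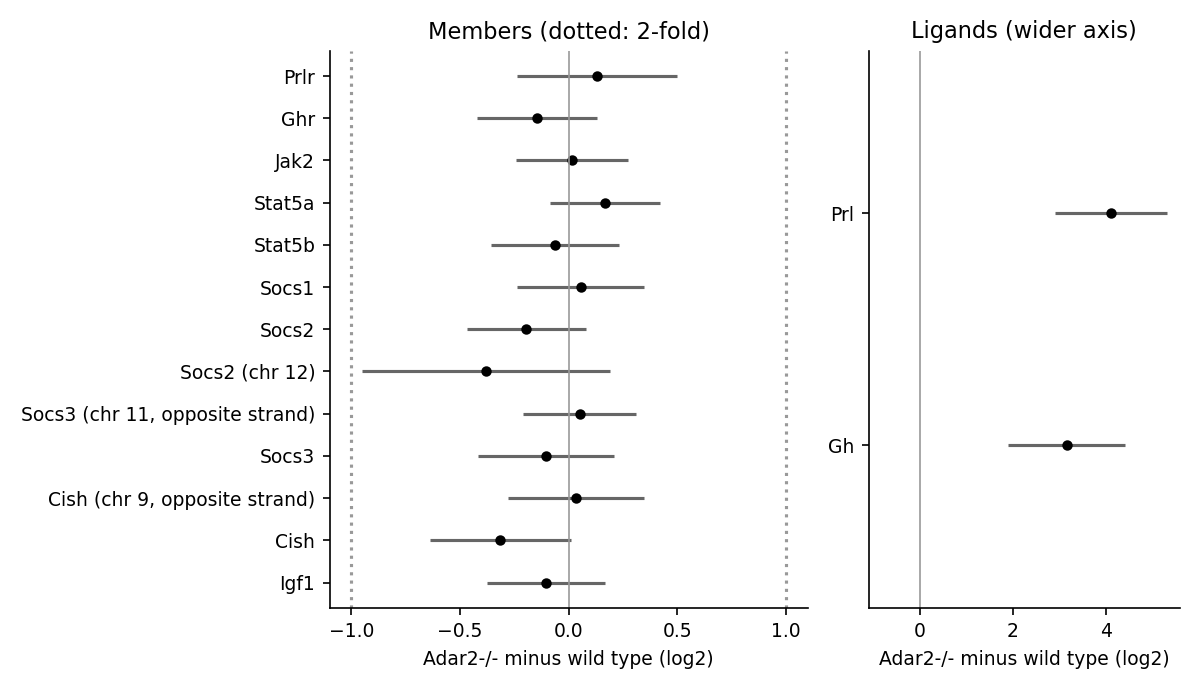
Adar2-/- minus wild-type difference of log2 means (points) with 95% intervals from limma (bars), for the 13 member clusters on the left and for the hormone genes on the right, whose axis is wider. All member intervals lie inside the dotted lines at a 2-fold difference, and those of Prl and Gh start at 2.91 and 1.90.

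In 3 clusters a member's symbol stood for a place or strand other than that of the gene, and what they measure was not tested. The second Socs3 cluster (740 bases) and the second Cish cluster (1459 bases) lie wholly inside the span of the gene but on the opposite strand. The Socs3 one was at 4.32 and 4.23 in wild type and at 4.30 and 4.35 in Adar2-/- brain. The Cish one was at 6.09 and 6.26 and then at 6.31 and 6.11, with a difference of 0.035 where the cluster on the strand of the gene had -0.315. The second Socs2 cluster lies on chromosome 12 (14494561 to 14495157, plus strand, 9 probes), away from the gene on chromosome 10, and the file marks it and the second Socs3 cluster as able to cross-hybridize. It was at 8.87 and 8.70 in wild type and at 8.75 and 8.06 in Adar2-/- brain, the low value again being that of replicate 2. The difference of -0.38 (SE 0.232, limma p 0.154) was -0.725 (p 0.0136) without Adar2-/- replicate 1 and -0.035 (p 0.808) without Adar2-/- replicate 2. Its 95% interval, from -0.95 to 0.19, was the widest among the 13.

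In the wider pathway, too, the receptors, adaptors and targets gave no calls. Beside the members it comprised 79 genes with 83 clusters, and Prl and Gh were the 2 clusters with a limma p below 0.05, with 0 adjusted. Of the other 81 clusters, 0 had an unadjusted limma p below 0.05, where 5.95% of all clusters did, and their differences had a median of -0.005. The groups did not overlap in 24.7% of the 81, against 34.1% of all clusters. By role, 0 of 8 clusters of other Janus kinases and STATs, 0 of 8 of other SOCS and PIAS inhibitors and 0 of 7 of phosphatases and SH2B adaptors passed. The same was true of 0 of 15 adaptor and Ras-MAPK clusters, 0 of 13 IRS-PI3K-Akt clusters, 0 of 11 of the IGF axis, 0 of 11 of STAT5 targets of other tissues and 0 of 8 of related cytokine receptors.

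The medians of these groups lay between -0.06, for the adaptors and Ras-MAPK genes, and 0.05, for the IGF axis. Nearest to the threshold was Irs4, a docking protein of insulin and cytokine receptors, with 6.32 and 6.23 in wild type and 6.07 and 5.93 in Adar2-/- brain (limma p 0.0509). It was named after its values were seen, as were the following genes. Gadd45g, a stress-induced gene among the STAT5 targets, had 7.96 and 8.20 and then 7.75 and 7.82 (limma p 0.0574), and Jak3, the Janus kinase of lymphocytes, 6.84 and 6.75 and then 7.02 and 7.06 (limma p 0.0596). Irs4 and Gadd45g were lower and Jak3 higher in both Adar2-/- arrays. Bcl6, with the core in its promoter windows, was at 8.79 and 8.86 in wild type and at 8.96 and 8.89 in Adar2-/- brain (limma p 0.379). Igf1r, the receptor of IGF1, was at 8.99 and 9.02 in wild type and at 9.04 and 8.92 in Adar2-/- brain.

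**Figure D5:**
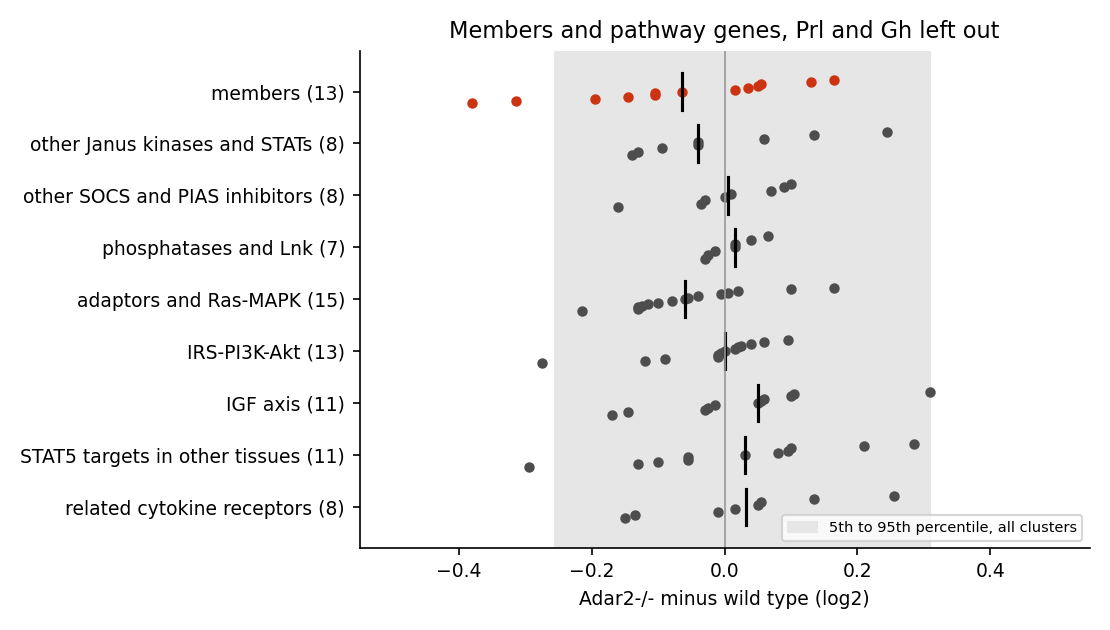
Adar2-/- minus wild-type differences (log2) of the member clusters (red) and of the pathway clusters by role (grey), with the number of clusters in parentheses, short black lines at the medians and Prl and Gh left out. The grey band, -0.255 to 0.31, holds the middle of all clusters from the 5th to the 95th percentile, and the members outside it are Cish and the chromosome 12 cluster with the symbol Socs2.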

How the data were processed

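Per the labels, RNA of 2 wild-type and 2 Adar2-/- whole brains was hybridised to Affymetrix whole-transcript arrays, and the submitters' processing notes name Affymetrix Expression Console and RMA. The authors deposited normalized log2 signals, given to 2 decimals, for 33793 transcript clusters. RMA draws the arrays toward a common distribution, so a shift shared by all genes is largely removed. The deposited values were not fully equal, with array medians of 6.03 and 6.06 in wild type and 6.09 and 6.08 in Adar2-/- brain. The genome build of the file is not given in the sources used here. The authors' own means, ratios, fold changes and p-values were not used.

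Genotypes were compared by the two-sided moderated test of limma 3.58.1 (eBayes after lmFit, under R 4.3.3), with Benjamini-Hochberg adjustment over all clusters and no filter. The prior SD was 0.125 with 3.79 prior degrees of freedom. Alternatives were other scalings, a signal filter, the replicate number as a block, each array left out, other variance estimates, no cross-hybridizing clusters and 1 value per gene. The fit was also run on simulated data drawn from its own variance model. These held no array with foreign or missing tissue, so the run cannot show how the fit handles such arrays. Members and lists were chosen with earlier results of these data known, and the salivary list, and the restriction to own-locus clusters, after the values were seen. All members were named, with pathway genes having an unadjusted p below 0.05, Prl, Gh and Adarb1. All 152 listed genes had a row, 2 of them through an older symbol. Promoter windows are RefSeq GRCm38.p6. Tables and plots were made in Python 3.11.15 (pandas 2.3.3, matplotlib 3.10.9).

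Of the other marker lists, 1 of 6 endothelial clusters (Slco1a4) and 0 of 7 meningeal clusters had a limma p below 0.05.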

Additional observations from a re-analysis of the deposited data

How the results depend on the processing

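Of 14 alternatives, those that kept all 4 arrays, and the own-locus clusters alone, gave no member cluster with an adjusted p below 0.05. Among all clusters under these alternatives, 0 passed that threshold except in the pooled-variance test without shrinkage, where 15 of 33793 did. At an unadjusted p below 0.05 the count of 0 became 1 after median centring, quantile normalization, cyclic loess, the removal of clusters that can cross-hybridize (Cish in each) and the pooled-variance test without shrinkage (Stat5a), and it ranged from 0 to 2 with 1 array left out (2 without Adar2-/- replicate 1). Of all clusters tested, 6.01% passed that threshold after median centring, 5.44% after quantile normalization and cyclic loess, 6.1% without clusters that can cross-hybridize, 5.61% in the pooled-variance test, 5.85% above the median signal, and 3.61% to 5.33% with 1 array left out (5.33% without Adar2-/- replicate 1, 4.89% without wild-type replicate 2). In the removal of clusters that can cross-hybridize fewer clusters were tested, and the cause of the others was not tested. The pathway count of 2 became 4 after median centring (with Gadd45g and Irs4), 5 among clusters above the median signal (with Gadd45g, Irs4 and Jak3) and 4 in the pooled-variance test, which called Prl, Jak3, Gab1 and Gab2 but not Gh, and it was 3 to 4 with 1 array left out (4 without wild-type replicate 2: Prl, Gh, Igfals and Stat4). The median difference of the members stayed between -0.105 and -0.0213. Of 173 single values under an alternative, 155 kept their sign and their side of an unadjusted p of 0.05, 2 became exactly 0 (Socs1 without wild-type replicate 1 and Socs3 without Adar2-/- replicate 1), and 7 kept their sign and passed it. A further 9 changed sign. Jak2 moved to -0.025 after median centring, and the opposite-strand Cish cluster to -0.005 after median centring and after quantile normalization. With 1 array left out the ranges were -0.02 to 0.28 for Prlr, -0.025 to 0.055 for Jak2, -0.17 to 0.04 for Stat5b, -0.035 to 0.145 for Socs1 and -0.065 to 0.135 for the opposite-strand Cish cluster. Arrays of 1 replicate number hardly deviated together (Pearson's r 0.0516, over clusters), so the numbers were not taken as pairs. Under a replicate block, 0 members and 0 pathway clusters passed the adjusted threshold, 0 members and 3 pathway clusters (Prl, Gh and Irs4) passed the unadjusted one, and the median difference of the members was -0.065. Of the 13 member clusters 4 fell below the signal filter, among them Cish, Prlr and Ghr, so that alternative gives no value for them. Where 1 array was left out, the remaining array of that genotype has no spread of its own, and the spread of the other genotype stands in for it.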
